A study of Mus musculus with 9 samples.

Results

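Ion, metal and phosphate transporters of the mouse gut were followed in organoids, which are self-organizing epithelial cultures held in a matrix. The organoids were of normal-appearing epithelium and of adenomas, the latter without and with sulindac treatment. The members were taken by name: every row of the count table whose symbol belongs to the solute carrier families Slc4, Slc8, Slc9, Slc11, Slc12, Slc20, Slc26, Slc30, Slc34, Slc39, Slc40 or Slc41. This gave 77 genes of 23955 rows. RNA-seq was performed on 9 samples in 3 groups of 3. MIN organoids came from gut epithelium outside the tumors of APCmin/+ mice, and adenoma organoids from adenomatous polyps of such mice. In the sulindac group, adenoma organoids were treated with sulindac, a non-steroidal anti-inflammatory drug. They are called treated adenomas below. All groups thus carry the Apc mutation, and no wild-type organoids are among the samples compared. The medium held Noggin, EGF, bFGF, R-spondin1 and B27 in all groups. The age, sex and strain background of the mice, the dose and duration of sulindac in the organoids, and whether samples of different groups shared a mouse are not given in the sources used here.

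An enterocyte moves salts and metals with separate carriers on its lumen-facing (apical) and blood-facing (basolateral) membranes. At the apical face, sodium/proton exchangers of the Slc9 family work beside chloride/bicarbonate exchangers of the Slc26 family to absorb salt, while crypt cells load chloride through the basolateral cotransporter Slc12a2 and secrete it through the channel Cftr. Iron enters through Slc11a2 and leaves the cell through Slc40a1 (ferroportin). Zinc is brought into the cytosol by Slc39 (ZIP) proteins and removed from it by Slc30 (ZnT) proteins, either across the plasma membrane or into vesicles. Phosphate is absorbed through Slc34a2, with Slc20 proteins as widely expressed phosphate carriers.

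The totals ranged from 30881206 to 48412477 counts per sample. Levels are given as CPM, counts per 1000000 of the TMM-normalized library total, where TMM is edgeR's trimmed-mean scaling. A gene with 3 counts lay between 0.0641 and 0.10 CPM, taken as the floor, and the floor covers counting error only. Differences were tested in edgeR (quasi-likelihood F-test), and p-values were adjusted by Benjamini-Hochberg over all genes tested, at a false discovery rate (FDR) of 1%. Each log2 fold change is followed by its standard error. The study describes the samples as biological replicates, but whether they came from separate mice is not given in the sources used here, so that p-values measure the spread between these cultures. The epithelial markers Epcam, Cdh1, Krt8 and Krt18 were high in every sample. With Krt20 they summed in MIN to between 4096 and 5986 CPM, in adenoma to between 2736 and 3534 and after sulindac to between 3715 and 4312. Of these 5, Cdh1, Krt8 and Krt20 were lower in adenoma than MIN (-0.87, -1.23 and -7.86 on the log2 scale), and in the fit with replicate number as a block Epcam was lower too (adjusted p = 0.00654) and Krt18 higher (0.00271). The small intestinal marker Gata4 was detected in every sample at 67.3 to 120 CPM. The 10 enterocyte markers, among them Vil1, Alpi, Fabp1, Sis, Lct and Apoa4, summed in MIN to between 3533 and 5439 CPM, in adenoma to between 247 and 277 and after sulindac to between 315 and 367. All 10 were lower in adenoma than MIN, and Lct was at 0 in 2 of the 3 adenoma samples. Only 4 of them were tested after sulindac against adenoma. There Vil1 was higher (0.72 on the log2 scale), and Anpep and Sis were lower (-1.81 and -1.87). The 4 goblet cell markers and the 3 enteroendocrine markers were also lower in adenoma, as were 3 of 4 Paneth cell markers and 2 of 3 tuft cell markers (3 of 3 with the block, where Trpm5 had an adjusted p of 0.00929). Their part in the transporter results was not tested. In bulk RNA, fewer cells of a type and less RNA per cell cannot be told apart. Of other cell types, the collagen genes Col1a2 and Col3a1 and the globin gene Hbb-b1 were at 0 in all 9 samples, and the 3 endothelial markers summed to at most 0.572 CPM. The 4 fibroblast markers summed in MIN to between 3.60 and 3.93 CPM, in adenoma to between 0.723 and 1.09 and after sulindac to between 0.367 and 0.667. Within them Pdgfrb was lower in adenoma than MIN, with 143, 176 and 127 counts in MIN and 1, 0 and 0 in adenoma, and Pdgfra was higher (2.49 on the log2 scale). Among the 5 leukocyte markers Cd68 was detected above the floor, at 1.13 to 2.26 CPM in MIN and 7.94 to 16.2 CPM in adenoma and 2.84 to 3.90 CPM after sulindac, and Ptprc reached at most 0.225 CPM. Cd68 was thus higher in adenoma than MIN (log2 fold change 2.79 ± 0.35, adjusted p = 0.000193) and lower after sulindac than in adenoma (log2 fold change -1.78 ± 0.27, adjusted p = 0.00193), and its part in the transporter results was not tested. The 4 stem cell markers summed in MIN to between 1121 and 2224 CPM, in adenoma to between 339.9 and 588 and after sulindac to between 152 and 332. They did not move together: Olfm4 and Lgr5 were lower in adenoma than MIN, and Ascl2 was higher (1.37 on the log2 scale, adjusted p = 0.000785). Smoc2 missed the threshold there (-0.13, adjusted p = 0.689), and none of the 3 tested after sulindac against adenoma passed it. The markers of smooth muscle and of neurons and glia summed to at most 1.33 and 2.46 CPM.

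Between adenoma and MIN organoids, the comparison that asks what distinguishes polyp epithelium from its neighbouring gut, most transporters that could be tested differed. Of the 77 members, 61 had enough counts, and of these 16 (26.2%) were higher and 24 (39.3%) were lower in adenoma. Of all 13744 genes tested, 18.5% were higher and 20.1% were lower. The median log2 fold change was -0.29 over the members tested and -0.008 over all genes tested. A gene present in 1 group alone passes the filter on low counts through that group, so the share among genes tested is a description of those genes and not of the whole families. The lower genes included the apical anion exchangers Slc26a3 and Slc26a6, the zinc importer Slc39a5, the metal exporter Slc30a10 and the phosphate carrier Slc34a2, of which Slc26a6 changed least, at -5.05 on the log2 scale. The higher genes included the vesicular zinc transporter Slc30a2, the bicarbonate transporter family members Slc4a3, Slc4a8 and Slc4a11, the magnesium transporter Slc41a1 and the iron exporter Slc40a1.

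The comparison of treated with untreated adenoma organoids asks what the drug changes in the tumor epithelium. Of 57 members tested, 5 were higher (8.77%) and 6 were lower (10.5%) after sulindac, against 8.32% and 9.10% of all 12962 genes tested, so that the shares of the transporters lay near the background. The median log2 fold change was 0.12 over the members and -0.013 over all genes tested. Slc40a1, Slc20a2, Slc30a1, Slc30a4 and Slc39a14 were higher, and Slc4a1, Slc30a2, Slc9a3, Slc12a8, Slc41a1 and Slc39a8 were lower. The number of higher members fell to 3 without adenoma replicate 2, sulindac replicate 1 or sulindac replicate 3, in each case with Slc30a4 and Slc39a14 no longer past the threshold. Scaling by library size alone moved the median of all genes by -0.17 in this comparison and by 0.13 between adenoma and MIN. With that scaling 3 members were higher and 9 were lower after sulindac, and 19 were higher and 21 were lower in adenoma than MIN. Treated adenoma organoids were also set against MIN. There, of 61 members tested, 18 were higher (29.5%, against 23.0% of 13551 genes) and 24 were lower (39.3%, against 26.8%), with medians of -0.12 over the members and -0.031 over all genes. The 3 comparisons share samples in pairs, and their values are therefore given side by side for each gene without a test of their likeness.

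**Figure D1:**
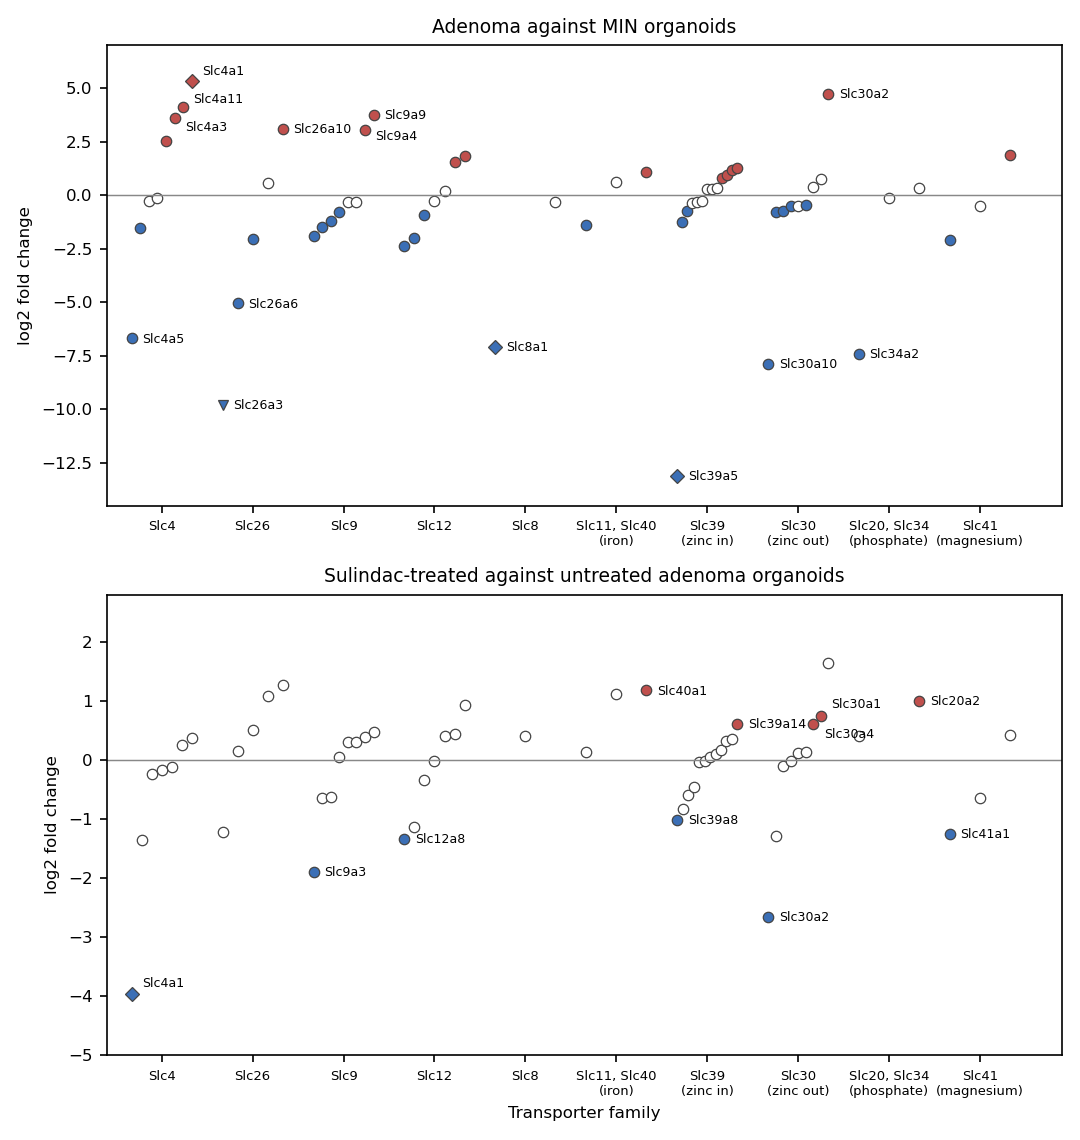
Log2 fold change of each transporter tested (vertical axis), by family (horizontal axis), in adenoma against MIN organoids (top) and in sulindac-treated against untreated adenoma organoids (bottom). Circles are fitted values, diamonds the plain count ratios of genes with 1 to 3 counts in a group, and the triangle a lower bound for Slc26a3, which had no adenoma counts. Filled symbols passed the FDR of 1%, red for higher and blue for lower, and open symbols did not. In the top panel 16 genes are filled above and 24 below the line, and in the bottom panel 5 and 6.

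Among the Slc26 anion exchangers, 1 was higher (20%, all genes 18.5%) and 3 were lower (60%, all genes 20.1%) in adenoma than MIN, of 5 tested. The exchangers of the apical membrane were among the lower. Slc26a3, the chloride/bicarbonate exchanger whose human deficiency causes congenital chloride diarrhea, had 1224, 1240 and 671 counts in the MIN samples, 0, 0 and 0 in adenoma and 0, 1 and 0 after sulindac. Its level was thus at least 889-fold lower in adenoma than MIN, taking 3 counts over the 3 adenoma samples as the limit (adjusted p = 3.72e-06). Slc26a6, an apical exchanger of chloride for bicarbonate and oxalate, stood at 66.9, 57.9 and 56.7 CPM in MIN, 2.02, 1.56 and 1.88 in adenoma and 3.27, 2.2 and 2.27 after sulindac. MIN samples lay far above the other 6 (log2 fold change -5.05 ± 0.15, adjusted p = 8.29e-08). Between treated and untreated adenomas the difference did not pass the threshold (log2 fold change 0.51 ± 0.25, adjusted p = 0.154). Slc26a2, a sulfate transporter, fell less, from 54.97, 54.6 and 58.2 CPM in MIN to 20.1, 14.3 and 6.48 in adenoma (log2 fold change -2.03 ± 0.33, adjusted p = 0.000986). After sulindac it measured 29.7, 24.6 and 31.8 CPM, above each adenoma sample but short of the threshold (log2 fold change 1.08 ± 0.34, adjusted p = 0.0405), which DESeq2 passed (adjusted p = 0.00302). Slc26a10 went the other way, from 0.608, 0.513 and 0.381 CPM in MIN to 3.26, 2.85 and 6.88 in adenoma and 1.87, 1.9 and 1.77 after sulindac (log2 fold change 3.10 ± 0.41, adjusted p = 0.000298). Of its 50-base stretches 16.6% are shared with B4galnt1, which overlaps it on the opposite strand. Since the strand setting of the counting is not given, reads from these shared stretches cannot be told apart. The sulfate transporter Slc26a1 had few reads, with counts of 8, 7 and 5 in MIN, 10, 8 and 13 in adenoma and 19, 12 and 38 after sulindac, and differed between treated adenomas and MIN (log2 fold change 2.11 ± 0.50, adjusted p = 0.00553). That call was lost without any 1 of 5 of the 6 samples, with adjusted p from 0.0119 to 0.0243. Slc26a11 was also higher in treated adenomas than in MIN (log2 fold change 0.73 ± 0.16, adjusted p = 0.00409), a call lost without any 1 of 4 samples (0.0105 to 0.0219).

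The bicarbonate transporters of the Slc4 family moved in both directions between adenoma and MIN, with 4 higher (50%, all genes 18.5%) and 2 lower (25%, all genes 20.1%) of 8 tested. Slc4a4, the basolateral sodium-bicarbonate cotransporter of epithelia, was high in all groups, at 149.6, 152 and 208 CPM in MIN, 180.1, 165 and 117 in adenoma and 205, 181 and 211 after sulindac. MIN overlapped both other groups, every treated sample lay above every adenoma sample, and no comparison passed the threshold (log2 fold change -0.14 ± 0.19, adjusted p = 0.568 for adenoma against MIN and log2 fold change 0.38 ± 0.17, adjusted p = 0.114 for sulindac against adenoma). Without MIN replicate 3, treated adenomas against MIN passed it (adjusted p = 0.00408). Slc4a5, a related cotransporter, was near the floor outside MIN, with counts of 372, 480 and 295 in MIN, 1, 3 and 5 in adenoma and 6, 3 and 2 after sulindac (log2 fold change -6.69 ± 0.38, adjusted p = 1.86e-06). The sodium-bicarbonate cotransporter Slc4a7 was lower in adenoma as well (log2 fold change -1.52 ± 0.25, adjusted p = 0.000915). Slc4a11, a divergent family member best known from corneal endothelium, rose from 1.31, 1.03 and 1.2 CPM in MIN to 21.4, 20.3 and 19.5 in adenoma (log2 fold change 4.11 ± 0.17, adjusted p = 3.6e-07). It measured 19.97, 14.5 and 17.4 CPM after sulindac, a range that overlapped untreated adenoma (-0.23 ± 0.14 on the log2 scale). The anion exchanger Slc4a3 showed 0.438, 0.406 and 0.300 CPM in MIN, 3.79, 3.91 and 6.39 in adenoma and 2.77, 1.31 and 1.4 after sulindac (log2 fold change 3.61 ± 0.33, adjusted p = 2.99e-05). The step down with sulindac did not overlap between groups and missed the threshold (adjusted p = 0.0175), though DESeq2 called it (adjusted p = 0.00103), as did 3 other settings (0.00895 to 0.00997). Slc4a8, a sodium-driven chloride/bicarbonate exchanger, stood at 0.633, 0.470 and 0.518 CPM in MIN, 3.09, 3.21 and 3.09 in adenoma and 3.5, 2.51 and 2.33 after sulindac (log2 fold change 2.53 ± 0.26, adjusted p = 5.57e-05). Slc4a1, the anion exchanger of red blood cells, was called on few reads, with counts of 1, 0 and 0 in MIN, 11, 10 and 13 in adenoma and 0, 1 and 1 after sulindac. The count ratio was 39.97 for adenoma over MIN (95% exact counting interval 6.71 to 1625) and 15.6 for adenoma over sulindac (3.99 to 133.8). The second call was lost with DESeq2 (adjusted p = 0.0109) and without any 1 of 4 samples (0.0110 to 0.0176). Of the erythroid markers, Hbb-b1 was at 0 and Alas2 reached at most 0.281 CPM. The anion exchanger Slc4a2 was lower in treated adenomas than in MIN (log2 fold change -0.41 ± 0.10, adjusted p = 0.0084), a call lost without any 1 of 5 samples (0.0131 to 0.0378). Of its 50-base stretches 12.1% are shared with other genes, among them Fastk on the opposite strand.

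Genes that work beside these exchangers in chloride secretion and bicarbonate handling changed too. Of 13 such partner genes tested, 2 were higher (15.4%, all genes 18.5%) and 7 lower (53.8%, all genes 20.1%) in adenoma than MIN. The chloride channel gene Cftr fell from 263, 278 and 375 CPM to 34.4, 37.6 and 15.96 (log2 fold change -3.38 ± 0.32, adjusted p = 3.54e-05). Kcne3, a potassium channel subunit of chloride-secreting cells, fell from 67.9, 54.8 and 33.7 CPM to 0.927, 0.782 and 0.781 (log2 fold change -5.97 ± 0.30, adjusted p = 1.04e-06). Car4, a membrane-bound carbonic anhydrase, had no counts in adenoma and 1.24 to 1.42 CPM in MIN. The cytosolic carbonic anhydrase Car2 went the opposite way, from 4.57, 6.82 and 22.8 CPM in MIN to 323, 188 and 312 in adenoma and 747, 909 and 883 after sulindac (log2 fold change 4.60 ± 0.59, adjusted p = 0.00023 and, for sulindac against adenoma, log2 fold change 1.63 ± 0.20, adjusted p = 0.000805).

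The sodium/proton exchangers moved in both directions, with 2 higher (25%, all genes 18.5%) and 4 lower (50%, all genes 20.1%) of 8 tested in adenoma against MIN. The apical exchangers Slc9a2 and Slc9a3 were lower in adenoma, as were Slc9a5 and Slc9a8, whereas Slc9a4 and the endosomal exchanger Slc9a9 were higher. Slc9a2 stood at 48.8, 47.5 and 70.1 CPM in MIN, 14.97, 15.4 and 13.5 in adenoma and 17.9, 19.3 and 16.6 after sulindac (log2 fold change -1.92 ± 0.17, adjusted p = 2.53e-05). Slc9a3, a main route of intestinal sodium absorption, fell at both steps, from 11.1, 10.4 and 7.98 CPM in MIN to 3.79, 3.02 and 3.7 in adenoma and 0.600, 1.04 and 1.13 after sulindac. The 3 groups did not overlap (log2 fold change -1.49 ± 0.20, adjusted p = 0.000335 for adenoma against MIN and log2 fold change -1.90 ± 0.28, adjusted p = 0.00169 for sulindac against adenoma). Of its scaffold proteins, Slc9a3r1 and Pdzk1 were lower in adenoma (-0.55 and -2.09 on the log2 scale) and Slc9a3r2 was higher (2.33). The call of Slc9a3r1 was lost in the fit that held replicate number as a block (adjusted p = 0.0191). Slc9a5 measured 12.3, 10.04 and 11.01 CPM in MIN, 5.11, 4.36 and 5.03 in adenoma and 3.27, 3.33 and 2.79 after sulindac (log2 fold change -1.20 ± 0.17, adjusted p = 0.000395). Slc9a8 differed by -0.77 ± 0.10 on the log2 scale. Slc9a4, a basolateral exchanger of gastric epithelium, rose from 0.803, 0.534 and 1.39 CPM in MIN to 9.02, 6.73 and 6.85 in adenoma and stood at 6.57, 3.7 and 4.07 after sulindac (log2 fold change 3.07 ± 0.35, adjusted p = 0.000115). Transcripts of the opposite strand share 18.4% of its 50-base stretches. Slc9a9 had counts of 1, 5 and 2 in MIN, 39, 36 and 21 in adenoma and 33, 29 and 53 after sulindac (log2 fold change 3.76 ± 0.51, adjusted p = 0.000325). The sodium pump subunit gene Atp1b1 was lower in adenoma than MIN (-0.77 on the log2 scale), and the sodium channel subunit Scnn1a was higher (1.48).

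Of the cation-chloride cotransporters, the secretory cotransporter Slc12a2 had the highest level per kilobase among all members in MIN. It stood at 1007, 1066 and 812 CPM in MIN and 209, 236 and 119 in adenoma (log2 fold change -2.35 ± 0.25, adjusted p = 7.86e-05). After sulindac it measured 311, 422 and 342 CPM, above each untreated adenoma sample. The difference from adenoma missed the threshold (log2 fold change 0.93 ± 0.24, adjusted p = 0.0179) but passed it without adenoma replicate 3 (adjusted p = 0.00540), with the replicate block (0.00930), in the fit of all 9 samples (0.00985) and with DESeq2 (0.000328). Slc12a8, a distant family member, fell at both steps, from 102, 99.7 and 100.4 CPM in MIN to 31.1, 24.7 and 20.8 in adenoma and 11.9, 10.03 and 8.29 after sulindac. No samples overlapped between the groups (log2 fold change -1.97 ± 0.15, adjusted p = 1.01e-05 and log2 fold change -1.34 ± 0.19, adjusted p = 0.0015). The potassium-chloride cotransporter Slc12a7 was lower in adenoma (log2 fold change -0.94 ± 0.10, adjusted p = 8.84e-05). Its relatives Slc12a4 and Slc12a5 were higher, both at low levels. Slc12a4 had 1.17, 0.641 and 2.13 CPM in MIN, 3.29, 5.76 and 4.86 in adenoma and 3.43, 2.94 and 4.6 after sulindac (log2 fold change 1.83 ± 0.42, adjusted p = 0.00616), and its call was lost without any 1 of 4 of the 6 samples (0.0142 to 0.0235). For Slc12a5 (log2 fold change 1.57 ± 0.36, adjusted p = 0.00581) the call was lost without any 1 of 5 samples (0.0144 to 0.0294) and with the replicate block (0.0106). Slc8a1, a sodium/calcium exchanger, was near the floor outside MIN, with counts of 66, 43 and 50 in MIN, 1, 0 and 0 in adenoma and 0, 0 and 1 after sulindac. The count ratio of MIN over adenoma was 135 (95% exact counting interval 23.9 to 5375, adjusted p = 5.76e-05). Other calcium genes of absorption were lower in adenoma too, 3 of 3 tested (100%, all genes 20.1%). They were the vitamin D receptor gene Vdr (-4.16 on the log2 scale), the calcium pump gene Atp2b1 (-0.64, lost with the block at adjusted p = 0.0213) and S100g. The calcium-binding protein gene S100g had no adenoma counts. Vdr was higher after sulindac than in adenoma (log2 fold change 0.92 ± 0.15, adjusted p = 0.00235).

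**Figure D2:**
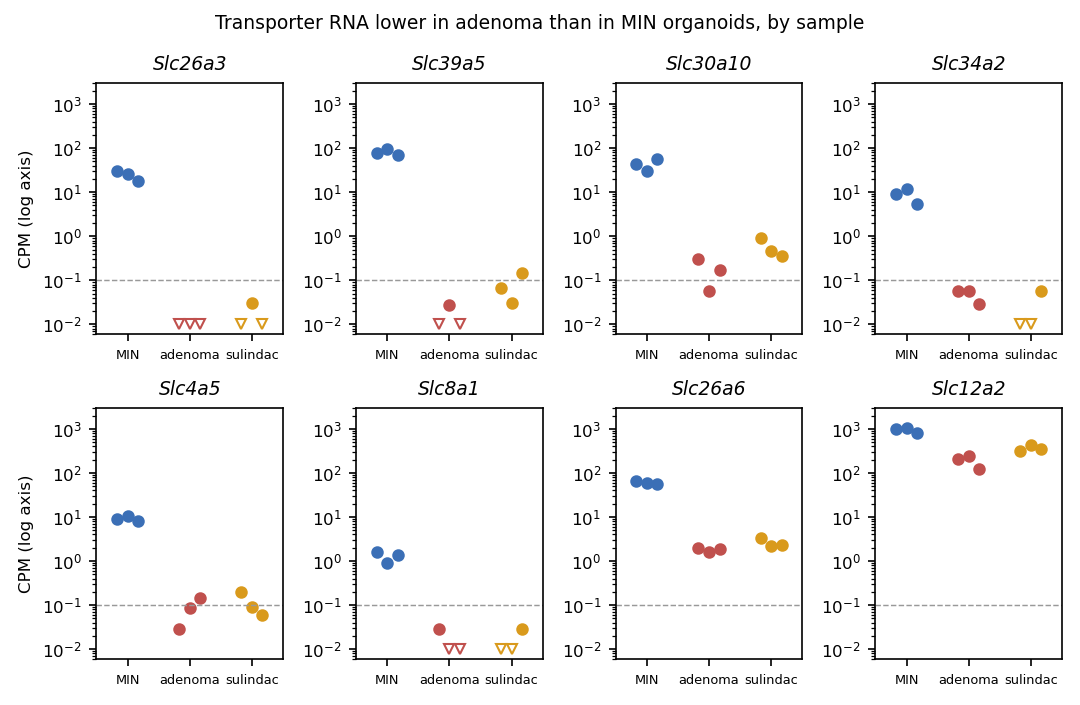
CPM (log axis) of 8 transporters in the 3 MIN, 3 adenoma and 3 sulindac samples, 1 point per sample. Open triangles mark samples with no counts, drawn at the bottom of the axis, and the dashed line is the upper end of the floor of 3 counts, 0.10 CPM. Every MIN sample lies above every adenoma and sulindac sample for all 8 genes, and the adenoma points of Slc26a3, Slc39a5, Slc34a2 and Slc8a1 lie under the line.

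The RNA of the iron importer Slc11a2 and of the exporter Slc40a1 differed in opposite directions between adenoma and MIN. Slc11a2, the ferrous iron importer of the apical membrane, measured 144, 99.9 and 113 CPM in MIN, 46.1, 45.2 and 42.9 in adenoma and 48.6, 48.5 and 49.7 after sulindac. Adenoma samples lay below every MIN sample (log2 fold change -1.41 ± 0.14, adjusted p = 5.94e-05), and treated samples lay just above adenoma, a difference that missed the threshold (0.14 ± 0.09 on the log2 scale, adjusted p = 0.28). Slc40a1, the iron exporter ferroportin, stood at 26.7, 19.04 and 26.6 CPM in MIN, 58.9, 45.99 and 46.7 in adenoma and 112, 123 and 107 after sulindac. It rose at both steps with no overlap between groups (log2 fold change 1.07 ± 0.17, adjusted p = 0.000725 and log2 fold change 1.18 ± 0.12, adjusted p = 0.000393). Slc11a1, a metal carrier of phagosomes, had counts of 20, 18 and 10 in MIN, 20, 17 and 25 in adenoma and 35, 37 and 52 after sulindac and was higher in treated adenomas than in MIN (log2 fold change 1.72 ± 0.33, adjusted p = 0.00179).

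Of 9 iron partner genes, 2 were higher (22.2%, all genes 18.5%) and 3 lower (33.3%, all genes 20.1%) in adenoma than MIN. After sulindac 3 were higher than in adenoma (33.3%, all genes 8.32%). Cybrd1, the ferric reductase that supplies Slc11a2, fell from 72.8, 40.5 and 36.8 CPM in MIN to 1.18, 0.782 and 1.04 in adenoma (log2 fold change -5.64 ± 0.33, adjusted p = 2.36e-06). Heph, the copper oxidase that works with ferroportin, stood at 101, 100.4 and 117 CPM in MIN, 37.1, 22.7 and 24.9 in adenoma and 93.96, 81.5 and 102 after sulindac (log2 fold change -1.91 ± 0.19, adjusted p = 4.98e-05 and log2 fold change 1.72 ± 0.19, adjusted p = 0.000564). The ferritin genes Fth1 and Ftl1, which encode the iron store, were higher in adenoma (1.90 and 0.94 on the log2 scale), and Ftl1 rose again after sulindac (log2 fold change 1.47 ± 0.21, adjusted p = 0.00152). Tfrc, the transferrin receptor, rose after sulindac (log2 fold change 1.03 ± 0.23, adjusted p = 0.0098), a call lost with the replicate block (0.0201). Aco1, an iron-responsive RNA-binding protein, was lower in adenoma (-1.09).

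**Figure D3:**
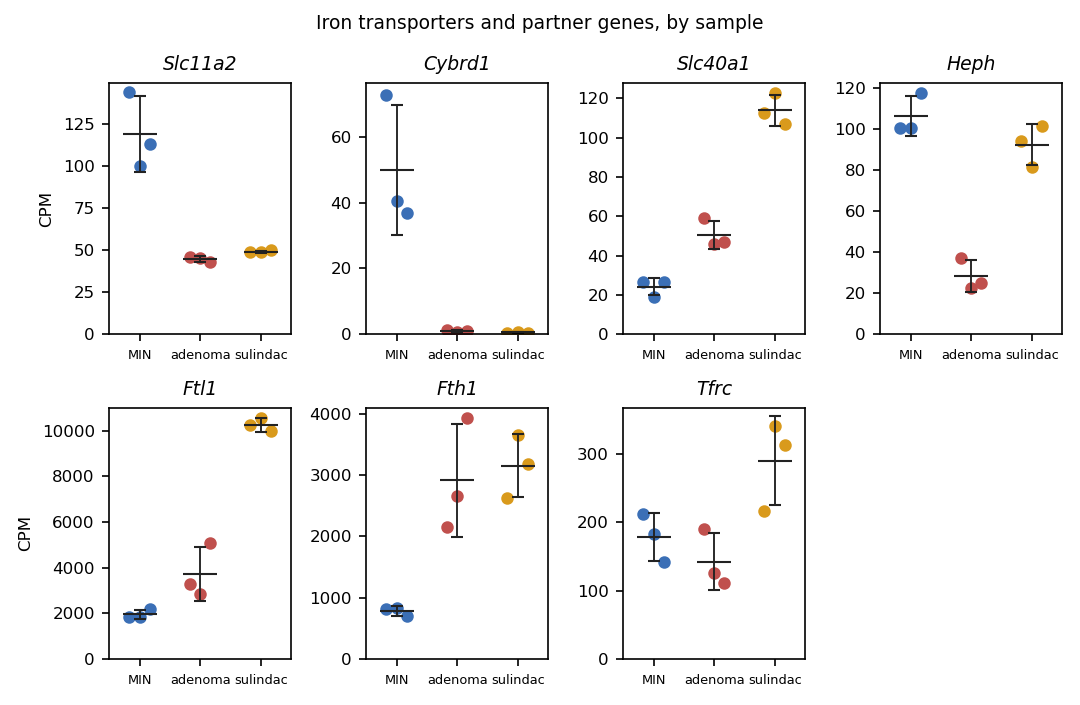
CPM of the iron importer Slc11a2, the exporter Slc40a1 and 5 partner genes in the 3 groups (linear axes from 0). Points are samples, and bars are the mean and SD of 3. Slc40a1 climbs from 19.0 to 26.7 CPM in MIN to 107 to 123 CPM after sulindac, while Slc11a2 stays between 42.9 and 49.7 CPM in both adenoma groups.

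Of the zinc importer family, 4 were higher (30.8%, all genes 18.5%) and 3 lower (23.1%, all genes 20.1%) in adenoma than MIN, of 13 tested. Slc39a5, a zinc importer of the basolateral membrane, had 3191, 4548 and 2543 counts in MIN, 0, 1 and 0 in adenoma and 2, 1 and 5 after sulindac. The count ratio of MIN over adenoma was 8746 (95% exact counting interval 1569 to 345500, adjusted p = 5.67e-08). Slc39a4, the apical importer whose loss in humans causes acrodermatitis enteropathica, did not follow it, at 56.97, 59.8 and 116 CPM in MIN, 82.1, 88.97 and 114 in adenoma and 77.4, 61.1 and 49.2 after sulindac. MIN replicate 3 was the highest of all 9 samples, and adenoma and MIN overlapped (log2 fold change 0.29 ± 0.27, adjusted p = 0.393). Without that sample the difference passed the threshold (adjusted p = 0.00780). Slc39a14, which carries zinc, manganese and iron, measured 133, 123 and 121 CPM in MIN, 105, 91.4 and 93.8 in adenoma and 157, 135 and 149 after sulindac. It rose with sulindac (log2 fold change 0.61 ± 0.11, adjusted p = 0.00362), a call lost without adenoma replicate 2 or sulindac replicates 1 or 3 (0.0151 to 0.0195) and with library size alone (0.0168). Slc39a8, a zinc and manganese importer, rose from 51.7, 55.8 and 55.99 CPM in MIN to 123, 134 and 117 in adenoma and fell to 60.2, 69.3 and 56.3 after sulindac (log2 fold change 1.20 ± 0.10, adjusted p = 1.87e-05 and log2 fold change -1.01 ± 0.11, adjusted p = 0.00044). Treated adenomas lay just above MIN, a difference of 0.18 ± 0.09 on the log2 scale that missed the threshold (adjusted p = 0.124). Slc39a6, Slc39a10 and Slc39a13 were higher in adenoma than MIN as well (0.96 ± 0.15, 0.80 ± 0.12 and 1.26 ± 0.21 on the log2 scale). Slc39a11 and the Golgi protein Slc39a9 were lower (-1.25 ± 0.09 and -0.73 ± 0.17), and Slc39a9 lost its call without MIN replicate 1 or 2 (0.0226 and 0.0257) and with library size alone (0.0302). Slc39a7, the importer of the endoplasmic reticulum and Golgi, passed the threshold between treated adenomas and MIN at 0.29 ± 0.08, but 74.5% of its 50-base stretches are shared with Gm20427, and the call was lost without any 1 of 5 samples and under 6 other settings. Slc39a1, Slc39a2 and Slc39a3 passed in no comparison.

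Of the zinc exporter family, 5 were lower (55.6%, all genes 20.1%) and 1 was higher (11.1%, all genes 18.5%) in adenoma than MIN, of 9 tested. Slc30a1, the exporter of the plasma membrane, stood at 36.1, 35.1 and 40.6 CPM in MIN, 21.3, 23.2 and 20.7 in adenoma and 35.7, 34.9 and 38.2 after sulindac. It was lower in adenoma than MIN (log2 fold change -0.77 ± 0.11, adjusted p = 0.000487) and higher after sulindac than in adenoma (log2 fold change 0.75 ± 0.10, adjusted p = 0.0014). Treated adenomas and MIN overlapped, with a difference of -0.04 ± 0.09 on the log2 scale. Slc30a4, a vesicular zinc transporter, was also lowest in adenoma, at 123, 131 and 141 CPM in MIN, 89.2, 84.3 and 66.2 in adenoma and 131, 111 and 124 after sulindac (log2 fold change -0.72 ± 0.13, adjusted p = 0.00179). Its rise with sulindac lay at the threshold (log2 fold change 0.62 ± 0.14, adjusted p = 0.00986), and was lost without any 1 of 5 samples (0.0108 to 0.0414), with the replicate block (0.0135), with at least 10 counts required in every sample (0.0105) and with library size alone (0.0457). Slc30a10, a manganese exporter of the gut and liver, measured 43.7, 29.9 and 56.6 CPM in MIN, 0.309, 0.0559 and 0.173 in adenoma and 0.900, 0.459 and 0.349 after sulindac (log2 fold change -7.89 ± 0.42, adjusted p = 1.37e-06). Slc30a5 and Slc30a7, which load zinc into the secretory pathway, were lower by less than 2-fold (-0.52 ± 0.09 and -0.48 ± 0.10). With library size alone both missed the threshold (0.0131 and 0.0306). Slc30a5 also missed it without MIN replicate 2 (0.0103), and Slc30a7 without any 1 of 4 samples (0.0105 to 0.0204). Of the 50-base stretches of Slc30a7, 15.3% are shared with other genes, among them Gm6649 and Gm43106 on the opposite strand.

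Slc30a2, a vesicular zinc transporter known from mammary gland, pancreas and Paneth cells, stood apart from the other exporters. It measured 15.5, 10.8 and 4.93 CPM in MIN, 223, 319 and 289 in adenoma and 25.8, 63.6 and 41.9 after sulindac. Every adenoma sample lay above every other sample (log2 fold change 4.73 ± 0.39, adjusted p = 1.61e-05 and, for sulindac against adenoma, log2 fold change -2.66 ± 0.29, adjusted p = 0.000507). Treated adenomas were still above MIN (log2 fold change 2.06 ± 0.43, adjusted p = 0.00348), a call lost without any 1 of 4 samples (0.0140 to 0.0216), with the block (0.0106) and without the low-count filter (0.0386). Of the 4 Paneth cell markers, Mmp7 moved as Slc30a2 did (1.91 in adenoma against MIN and -2.16 after sulindac on the log2 scale), while Lyz1, Defa24 and Defa17 were lower in adenoma (-6.82, -7.99 and -6.83). After sulindac Defa24 and Defa17 fell again (log2 fold change -1.86 ± 0.38, adjusted p = 0.00687 and log2 fold change -1.74 ± 0.36, adjusted p = 0.00759), and Lyz1 stood at -1.64 on the log2 scale (adjusted p = 0.0117, and 0.00329 with the block), so that all 4 were below untreated adenoma at that step, as Slc30a2 was. Their part in the level of Slc30a2 was not tested.

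The metallothionein genes Mt1 and Mt2, which encode zinc-binding proteins, were lower in adenoma than MIN. Mt1 fell from 706, 714 and 381 CPM in MIN to 81.7, 66.4 and 103 in adenoma and stood at 157, 142 and 104 after sulindac (log2 fold change -2.84 ± 0.27, adjusted p = 3.91e-05). Mt2 fell from 494, 442 and 206 CPM to 22.8, 16.5 and 25.4 and stood at 43.1, 30.3 and 19.5 after sulindac (log2 fold change -4.14 ± 0.34, adjusted p = 1.7e-05). Mtf1, the zinc-sensing factor that switches on metallothioneins and Slc30a1 through metal response elements, missed the threshold in each comparison, with values from -0.24 to 0.31 on the log2 scale. Of 6 zinc and copper partner genes, 4 were lower in adenoma (66.7%, all genes 20.1%), Mt1 and Mt2 among them. To show where such elements lie, the bases before the start of 3 family members are printed, 5′ to 3′ on the strand of the gene. They are 3 of the family members that were lower in adenoma and hold matches, and Slc30a5 is another. The bases are from RefSeq (build GRCm38.p6), leaving out those that GENCODE M21 places in an exon. Capitals mark matches to the core of the metal response element, TGCACNC or TGCGCNC, on either strand, and the 8 capitals of Slc30a10 hold overlapping matches of both strands. The Slc30a1 stretch is chr1:191906531-191906766 (plus strand), that of Slc30a4 is chr2:122702664-122702913 (minus strand) and that of Slc30a10 is chr1:185454598-185454847 (plus strand).
Slc30a1: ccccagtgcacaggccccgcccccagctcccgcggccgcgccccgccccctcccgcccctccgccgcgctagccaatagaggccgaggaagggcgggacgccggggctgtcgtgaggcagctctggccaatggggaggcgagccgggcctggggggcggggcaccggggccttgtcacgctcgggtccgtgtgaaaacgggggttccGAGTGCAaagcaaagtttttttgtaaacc
Slc30a4: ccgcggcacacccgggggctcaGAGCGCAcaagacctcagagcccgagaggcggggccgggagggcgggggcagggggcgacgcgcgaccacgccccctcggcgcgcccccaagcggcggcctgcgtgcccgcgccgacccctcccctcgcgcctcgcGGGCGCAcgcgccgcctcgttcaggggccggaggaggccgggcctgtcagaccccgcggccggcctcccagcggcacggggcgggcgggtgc
Slc30a10: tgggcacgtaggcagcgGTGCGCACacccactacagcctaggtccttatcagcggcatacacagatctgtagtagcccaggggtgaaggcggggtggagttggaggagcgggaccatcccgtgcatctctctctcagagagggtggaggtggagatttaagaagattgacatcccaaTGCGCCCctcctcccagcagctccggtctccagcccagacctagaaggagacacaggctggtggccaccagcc
In this family Slc30a2, which was higher in adenoma, had 2, while Slc30a5 and Slc30a7, which were lower, had 1 and 0. Of 77 members, 58 had an entry in the promoter table, with 72 start sites. The element's letters stood in the 250 bases before 24 of these starts (33.3%), against 7032 of all 32851 promoters (21.4%). The Wnt-responsive TCF/LEF letters CTTTGAT stood before 0 member starts and before 3.21% of all. Such matches are descriptions of the sequence.

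**Figure D4:**
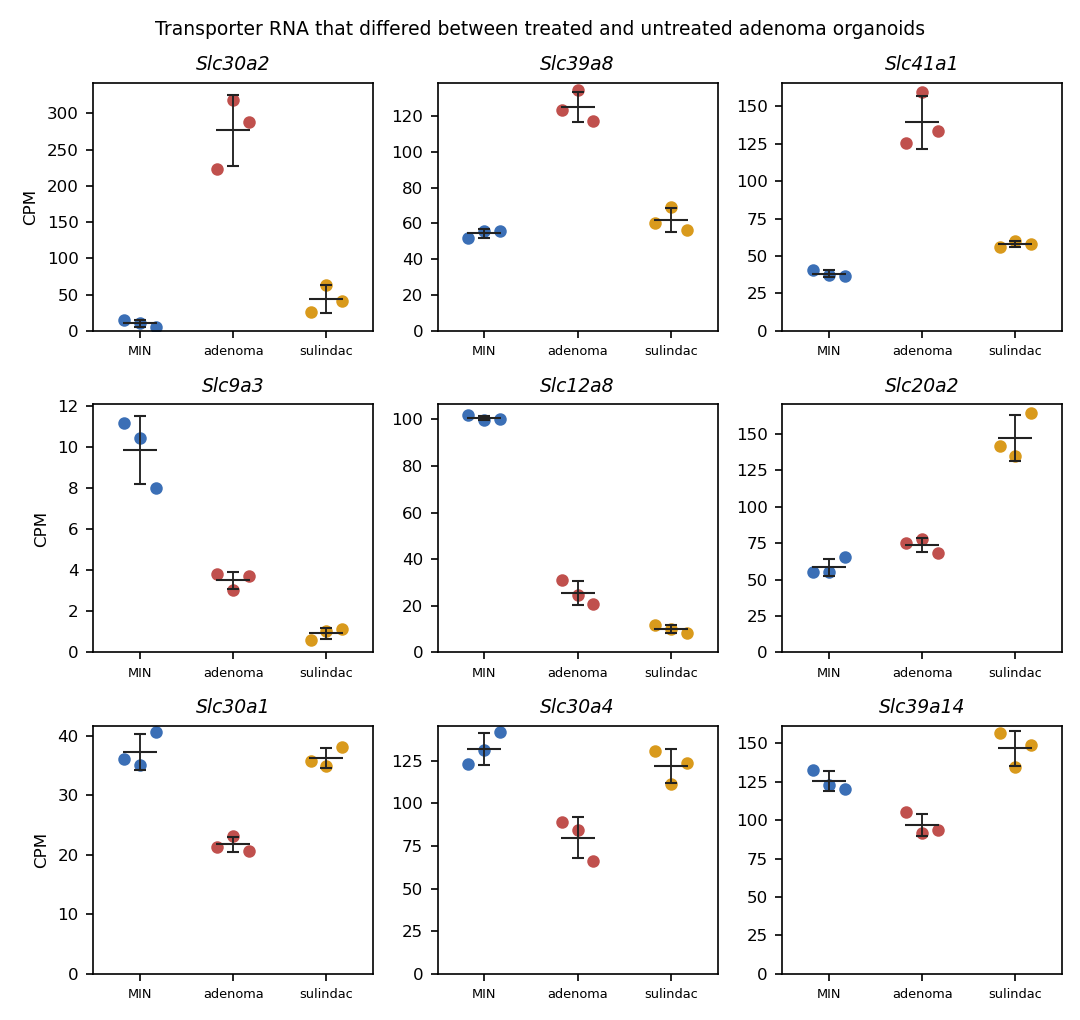
CPM of 9 transporters that passed the FDR of 1% between sulindac-treated and untreated adenoma organoids, in the 3 groups (linear axes from 0). Points are samples, and bars are the mean and SD of 3. Slc30a2, Slc39a8 and Slc41a1 peak in adenoma, Slc9a3 and Slc12a8 fall at both steps, and Slc30a1, Slc30a4 and Slc39a14 are lowest in adenoma.

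Of the 3 phosphate carriers tested, 1 was lower in adenoma than MIN (33.3%, all genes 20.1%). Slc34a2, the apical sodium-phosphate cotransporter, had counts of 366, 557 and 193 in MIN, 2, 2 and 1 in adenoma and 0, 0 and 2 after sulindac (log2 fold change -7.43 ± 0.49, adjusted p = 4.53e-06). Slc20a1, a phosphate carrier of most tissues, measured 44.3, 36.3 and 40.7 CPM in MIN, 38.5, 33.6 and 38.5 in adenoma and 44.7, 42.4 and 59.00 after sulindac and passed in no comparison, with values up to 0.41 ± 0.14 on the log2 scale. Its relative Slc20a2 stood at 55.1, 55.2 and 65.3 CPM in MIN and 75.2, 78.1 and 68.2 in adenoma, and rose to 142, 135 and 165 after sulindac. Each treated sample lay above each of the other 6 (log2 fold change 1.00 ± 0.12, adjusted p = 0.000623 against adenoma).

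Of the magnesium transporters, Slc41a1 rose in adenoma and fell with sulindac, at 40.7, 37.1 and 36.9 CPM in MIN, 125, 159 and 133 in adenoma and 56.3, 60.3 and 57.8 after sulindac. The 3 groups did not overlap (log2 fold change 1.87 ± 0.12, adjusted p = 4.33e-06, log2 fold change -1.25 ± 0.11, adjusted p = 0.000231 and, against MIN, log2 fold change 0.60 ± 0.08, adjusted p = 0.000252). Slc41a2 was lower in adenoma, from 9.98, 7.72 and 4.09 CPM in MIN to 1.46, 2.1 and 1.47, with 1.67, 2.87 and 2.15 after sulindac (log2 fold change -2.11 ± 0.35, adjusted p = 0.000992). Treated adenomas against MIN (log2 fold change -1.71 ± 0.35, adjusted p = 0.00272) missed the threshold without sulindac replicate 1 or 3 (0.0132 and 0.0141). Among their partner genes, Cnnm4, which exports magnesium from enterocytes, and the magnesium channel gene Trpm6 were lower in adenoma (-2.34 and -4.35 on the log2 scale), and Cnnm2 was higher (1.73). Cnnm4 rose again with sulindac (log2 fold change 1.14 ± 0.16, adjusted p = 0.0013). Over the partner genes of all pathways, 6 were higher and 21 lower of 39 tested in adenoma against MIN, and 7 were higher of 36 tested after sulindac against adenoma. As shares these were 15.4% and 53.8% (all genes 18.5% and 20.1%), and 19.4% (all genes 8.32%). After sulindac 0 of the 36 were lower (all genes 9.10%). The partner genes were chosen with earlier results of these data known, so the shares describe the list alone.

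Levels can be set side by side between genes per kilobase of exon in GENCODE M21, which may differ from the annotation of the counts. In MIN, Slc12a2 ranked first of the 77 members at 147.5 ± 20.5 CPM per kilobase (SD, n = 3), followed by Slc39a7 at 63.9 ± 3.43, Slc39a1 at 46.5 ± 2.56 and Slc39a5 at 37.9 ± 6.67. The last pair overlapped within their SD. In adenoma, Slc39a7 (81.3 ± 11.4) and Slc30a2 (77.7 ± 13.8) led and did not differ beyond their SD, and Slc39a5 ranked 67. Slc30a2 had ranked 40 in MIN. After sulindac, Slc39a7 (78.5 ± 2.23) and Slc12a2 (55.0 ± 8.82) led, Slc40a1 ranked 5 against 30 in MIN, and Slc30a2 ranked 17. The value of Slc39a7 carries the shared reads named above, and 21.8% of the 50-base stretches of Slc39a1 are shared with its pseudogene.

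The remaining members can be given in short. Of the 77, 12 were tested and passed the threshold in no comparison, among them Slc4a4, Slc8a3, Slc12a9, Slc20a1, Slc30a3, Slc39a1, Slc39a2, Slc39a3, Slc39a4 and Slc41a3. The zinc transporter genes Slc30a6 and Slc30a9 passed between treated adenomas and MIN, lower and higher respectively (-0.62 ± 0.11 and 0.52 ± 0.08 on the log2 scale). A further 15 members had too few counts for the filter used here in any comparison and reached at most 15 counts in a sample. Under other settings 3 of them were called. Slc26a9 was higher in adenoma than MIN without the filter and with DESeq2. Slc26a4 and Slc9a7 were lower than MIN in both adenoma groups without the filter and in treated adenomas with DESeq2, and Slc9a7 also without some single samples. Of these, the kidney cotransporter Slc12a1, Slc26a7 and Slc39a12 had no counts in any of the 9 samples. Slc34a1 and Slc34a3, the renal relatives of Slc34a2, reached 6 and 4 counts. Slc26a9, a chloride transporter of stomach and airway, had 0, 0 and 0 counts in MIN and 7, 7 and 5 in adenoma.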

How the data were processed

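RNA-seq of 9 mouse organoid samples (3 MIN, 3 adenoma, 3 sulindac) was analysed from the raw counts per gene deposited by the authors. The submitters' processing notes name Bowtie2 2.2.4, RSEM and build mm9, without their roles, and neither the annotation nor the strand setting is given in the sources used here. The counts came as 1 table of 23955 rows, 27 with a date in place of a symbol. MIN replicate 1 had 3 columns of the same name, and the third was the sum of the first 2 in all 23955 rows. The column names do not say what the first 2 are. They differed by less than the spread between replicates (chi-square per gene 1.19 against 18.6 to 81.7), and their sum was used.

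Each comparison was fitted on its own 6 samples in edgeR 4.0.16 (R 4.3.3; TMM, filterByExpr, robust quasi-likelihood test), with Benjamini-Hochberg adjustment over all genes tested and an FDR of 1%. The fit was tested on simulated data. For genes with 1 to 3 counts in a group the plain ratio of summed counts is given with an exact 95% interval, and a group without counts was set at 3. Intervals and floors cover counting error only. With totals of 30881206 to 48412477 counts, 3 counts are 0.0641 to 0.10 CPM. Exon lengths and shared 50-base stretches came from GENCODE M21, and promoters from RefSeq (GRCm38.p6).

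Values in every sample are given for members with a textbook role in the gut and, for each comparison, the 10 with the largest change in each direction among called members whose groups do not overlap. Members, partner genes and markers were chosen with earlier results of these data known. Same-numbered adenoma and MIN samples deviated together, though weakly (r = 0.125, 0.114 and 0.192). The main fits did not use the replicate number, so their p-values are unpaired. A fit with the replicate block was among the alternatives. The others were RLE factors or library size alone, other filters on low counts, 1 fit of all 9 samples, DESeq2 1.42.0, other thresholds and leaving out each sample. Values of a few single genes are not reported here, though the counts over lists include them.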

Additional observations from a re-analysis of the deposited data

How the results depend on the processing

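No member changed direction under any alternative where it was called. The 16 higher and 24 lower members of adenoma against MIN ranged from 14 to 20 and from 17 to 29 over all alternatives, and the 18 and 24 of sulindac against MIN from 12 to 20 and from 16 to 26. The 5 members higher after sulindac than in adenoma varied most in proportion, with 3 by library size alone, 9 with DESeq2, 11 at an FDR of 5%, 2 at an FDR of 1% with at least a 2-fold change, and 3 to 6 when 1 sample was left out. The 6 lower members became 13 at an FDR of 5% and 5 to 8 when 1 sample was left out. The looser and stricter thresholds change these counts by construction, and the cause of the other changes was not tested. With the replicate block, 15 members were higher and 24 lower in adenoma than MIN, with Slc12a5 lost (adjusted p = 0.0106). Same-numbered sulindac and adenoma samples did not all deviate together (r = 0.26, 0.213 and -0.077), nor did sulindac and MIN samples (-0.031, 0.404 and 0.258). There the block gave 5 higher and 7 lower against adenoma, with Slc30a4 lost and Slc12a2 and Slc30a3 gained (0.00909 for Slc30a3), and 17 higher and 23 lower against MIN, with Slc30a2, Slc39a7 and Slc39a9 lost (0.0166 for Slc39a9) and Slc12a4 gained (0.00163). Depth limits the genes with 1 to 3 counts in a group, whose ratios have wide counting intervals.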
